A study of Mus musculus with 42 samples.

Results

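Autophagy, the route by which a cell encloses its own cytoplasm in a double membrane and delivers it to the lysosome, was followed here through the mRNA of 39 genes of its machinery in mouse cerebellum under intermittent fasting. The genes were taken from a list of named members and matched by symbol in both deposited count tables. All 39 were found among the 35275 genes of each table, and all 39 passed the filter on low counts in every fit. The smallest count of any member in any library was 161 reads. The list holds the initiation complex (Ulk1, Ulk2, Atg13, Rb1cc1, Atg101) and the lipid kinase complex of nucleation (Becn1, Pik3c3, Pik3r4, Atg14, Uvrag, Ambra1). It holds membrane supply and phosphoinositide readers (Atg2a, Atg2b, Atg9a, Wipi1, Wipi2). The list has the genes of conjugation too (Atg3, Atg4a to Atg4d, Atg5, Atg7, Atg10, Atg12, Atg16l1). It also holds the LC3 and GABARAP proteins that coat the membrane (Map1lc3a, Map1lc3b, Gabarap, Gabarapl1, Gabarapl2), cargo receptors (Sqstm1, Optn, Nbr1, Tax1bp1, Bnip3, Bnip3l) and the transcription factors Tfeb and Tfe3.

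All mice were C57/BL6NTac males on a diet with 18% protein. From 3 months of age they were fed ad libitum (AL), fasted for 16 h each day with food from 7 am to 3 pm (IF16), or fasted for 24 h on alternate days with food given and taken away at 7 am (EOD), each for 3 months, so that collection fell at 6 months of age. In 3 further groups, whose labels carry an added R and are written AL-R, IF16-R and EOD-R here, the same regimens were followed by 2 months of free feeding, with collection at 8 months. RNA sequencing covered 30 libraries, 5 per group, and 12 chromatin samples were not analysed here. The labels do not say that the libraries of a group came from separate mice, so p-values measure the spread between these libraries, which may in part be technical. The hour of collection relative to the last meal is not given in the sources used here.

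Fasting is the classic trigger of autophagy. When nutrients are plentiful the kinase mTORC1 holds the Ulk1 complex and the factors TFEB and TFE3 inactive; when they are scarce the Ulk1 complex is released, a phosphoinositide made by Vps34 (Pik3c3) marks the site of the new membrane, and ATG2 and ATG9 supply its lipids. The Atg12 and LC3 conjugation systems then attach LC3 and GABARAP proteins to the membrane, where cargo receptors dock. Much of this control acts on proteins, and neurons, Purkinje cells among them, depend on basal autophagy. The counts measure mRNA, not the flow of material through the pathway.

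TFEB and TFE3 bind a form of the E-box, so the promoters of the members were searched for it. The RefSeq promoter table (assembly GRCm38.p6, from 250 bases before to 50 bases after the start) held 39 promoters of 32 members, and 7 members had no entry. The E-box CACGTG was found in 5 of 39 member promoters (12.8%), against 7.15% of all 32851 promoters. Its longer form TCACGTGA, the core of the CLEAR element, was found in 1 (2.56%, against 0.974% of all promoters). The FOXO-type motif TGTTTAC was searched on both strands too and was found in 0 of 39 (3.65% of all promoters). The CLEAR core contains the E-box, and each match describes letters only. The windows below hold every E-box found, in capitals, and are shown because TFEB and TFE3, which are known to bind this motif, are members themselves. They belong to Atg14 of nucleation, the conjugation genes Atg3, Atg5 and Atg7, and the receptor Bnip3. The windows lie at chr14:47568418-47568447 on the minus strand for Atg14, chr16:45158723-45158752 and chr16:45158746-45158775 on the plus strand for Atg3, chr10:44268313-44268342 on the plus strand for Atg5, chr6:114670952-114670981 on the plus strand for Atg7 and chr7:138909597-138909626 on the minus strand for Bnip3. The second Atg3 window holds the CLEAR core. The Atg7 window lies inside the gene as counted here (chr6:114643097-114860614, plus strand), at a RefSeq start downstream of the start of that gene.
Atg14: aaaacaaaatccCACGTGactggccctgag
Atg3: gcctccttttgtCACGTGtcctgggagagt
Atg3, CLEAR core: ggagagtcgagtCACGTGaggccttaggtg
Atg5: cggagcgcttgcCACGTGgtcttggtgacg
Atg7: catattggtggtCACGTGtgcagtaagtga
Bnip3: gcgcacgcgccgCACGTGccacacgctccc

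Total counts per library ranged from 26799825 to 36167435. Markers of granule cells (5 of 5 at 1 CPM or more, summed 2650 to 3690 CPM) and of Purkinje cells (5 of 5, 4110 to 6500 CPM) were high in every library. Summed levels of some marker lists separated the 2 sets of controls. Purkinje markers summed to 4110 to 5420 CPM in AL and 5820 to 6010 in AL-R. Granule cell markers summed to 2650 to 3300 and 3410 to 3640, and oligodendrocyte markers (5 of 5 at 1 CPM or more) to 5230 to 6030 and 4550 to 5080. Sums overlapped for astrocytes and Bergmann glia (1690 to 2010 and 1850 to 2070), microglia (89.4 to 120 and 82.2 to 91.5) and endothelium (236 to 256 and 207 to 240). Sums are weighted to their highest genes: over all libraries the Purkinje marker Itpr1 ran from 1490 to 3460 CPM and Calb1 from 853 to 1050. CPM are counts scaled to library size. Markers of the choroid plexus, a tissue that adjoins the cerebellum, varied between dissections, with a summed level of 182 to 5060 CPM in AL, 170 to 4170 in IF16, 1180 to 3920 in EOD and 154 to 3020 after refeeding. In bulk tissue, fewer cells of a type and less RNA per cell cannot be told apart. Libraries also differed in a length gradient, the slope of log2 CPM on log2 gene length, centred within a table. It was lowest in AL replicates 4 and 5 (-0.158 and -0.106) and IF16 replicate 1 (-0.115) and highest in EOD replicate 4 (0.141). These 4 libraries stood apart at the end of the regimens.

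The members spanned a wide range of levels. Per base of gene length, the LC3 and GABARAP genes and Sqstm1 (p62, which carries ubiquitin-tagged cargo) were the most abundant, and the enzymes that act on them were much lower. In AL the highest mean was that of Map1lc3a (232 RPKM ± 66.2, SD, n = 5), followed by Gabarapl1 (231 ± 27.6), Sqstm1 (151 ± 22.4), Gabarap (105 ± 24.3), Gabarapl2 (93.3 ± 8.46) and Map1lc3b (55.4 ± 9.13). RPKM divides CPM by gene length per 1000 bases. The place of Map1lc3a rested on AL replicates 4 and 5: without them, chosen after seeing the data, its mean was 187 RPKM against 212 for Gabarapl1, and Gabarapl1 had the higher mean in the other 5 groups. The lowest were Atg10, the E2-like enzyme that attaches Atg12 to Atg5 (6.03 ± 0.980), and the LC3 protease gene Atg4a (2.97 ± 0.335). Map1lc3a lay 78.1-fold above Atg4a, 27 members reached 10 RPKM, and 0 fell below 1 RPKM.

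Between these ends, neighbours in the order mostly could not be separated. The 5 AL libraries of adjacent members overlapped in 30 of 38 neighbouring pairs. The order was broken below Gabarapl1, Gabarapl2, Map1lc3b, Bnip3, Wipi2, Atg4b, Uvrag and Atg10. Among cargo receptors, the mitochondrial receptor Bnip3 (44.7 RPKM) stood above Tax1bp1 (38.6), Nbr1 (38.3) and Bnip3l (34.0), which were not separated from their neighbours, and Optn was lower (8.35). Of the initiation complex, Atg13 (34.7 RPKM) and the kinase Ulk1 (27.4) stood above its paralogue Ulk2 (11.5) and the scaffold Rb1cc1 (FIP200, 7.75). In nucleation, Ambra1 (15.7), Pik3c3 (13.9) and Becn1 (11.8) stood above Atg14 (7.43), the subunit that directs the kinase complex to autophagosomes. The proteases that prepare LC3 differed among themselves, from Atg4d (30.9) over Atg4b (18.4) and Atg4c (8.55) to Atg4a. Levels of 5 members are uncertain because they overlap a gene of the opposite strand and the handling of strand is not stated. The mean counts were 3670 reads for Zcchc14 against 6900 for Map1lc3b, 915 for Kri1 against 2260 for Atg4d, 811 for Ankzf1 against 2200 for Atg9a, 305 for the partner of Atg4b against 2510, and 158 for that of Sqstm1 against 12200.

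**Figure D1:**
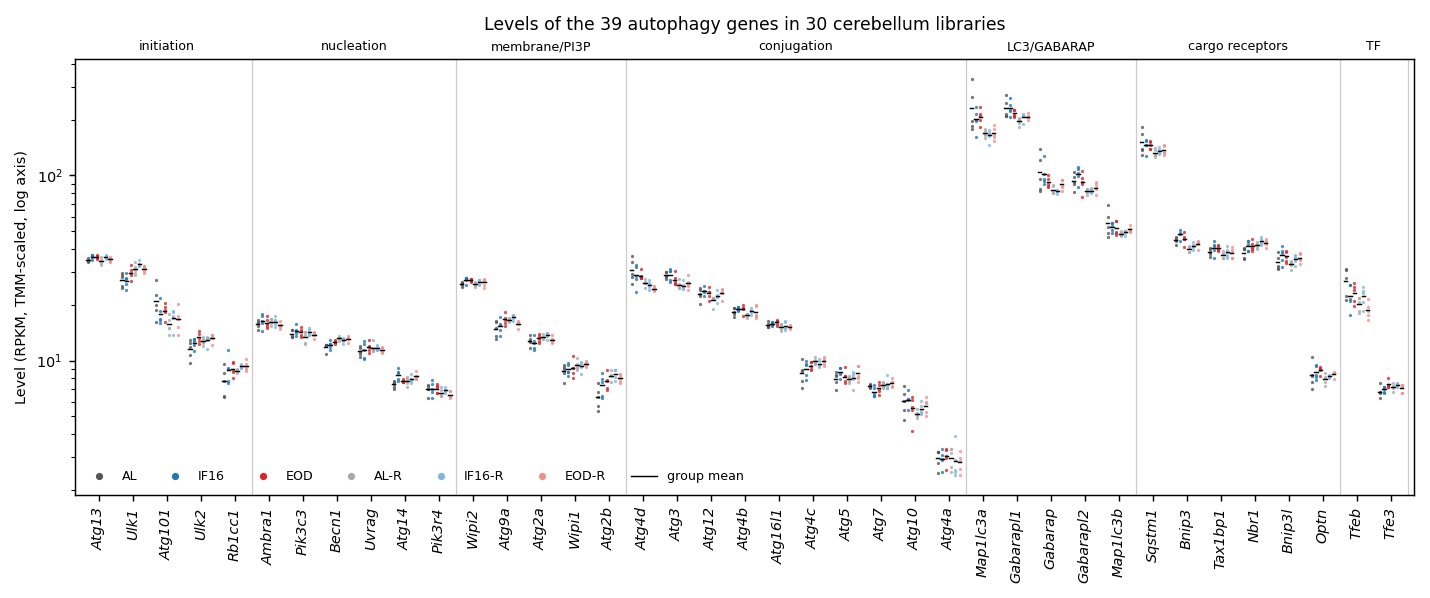
Level of each of the 39 members (vertical axis, RPKM on a log scale) in each of the 30 libraries, with genes ordered by role and by their mean within it. Points are libraries coloured by group and short black lines are group means; the 6 groups of a gene lie close together, while genes span from 2.97 RPKM (Atg4a, AL mean) to 232 RPKM (Map1lc3a, AL mean).

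Differences between the 6 groups were small beside this range. The highest group mean exceeded the lowest by 1.05-fold for Uvrag and by 1.06-fold for Ambra1, Atg13, Atg16l1 and Wipi2. The widest ranges were those of Tfeb (1.43-fold, from 18.7 RPKM in EOD-R to 26.7 in AL), Map1lc3a (1.41-fold, from 165 in IF16-R to 232 in AL), Atg101 and Atg2b (1.34-fold each). The spread within groups was wider at the end of the regimens. There the coefficient of variation, averaged over the 3 groups, had a median over members of 7.74% and ran from 2.11% (Atg13) to 17.1% (Map1lc3a). After refeeding its median was 4.21%, from 2.74% (Atg13) to 15.4% (Atg4a), and it was lower for 33 of 39 members. Gabarap went from 14.8% to 4.2%, Rb1cc1 from 14.4% to 3.19% and Map1lc3a to 6.45%. Without the 4 libraries of extreme length gradient, an alternative added after seeing the data, the median at the end of the regimens was 5.53%, with 6.77% for Gabarap, 12% for Rb1cc1 and 9.16% for Map1lc3a, and the spread after refeeding was lower for 25 of 39 members. The coefficient of variation was not computed over all genes, but their spread narrowed too. The median SE of the log2 fold change was 0.12 over all genes in IF16 against AL and 0.07 in IF16-R against AL-R. Over members it was 0.077 and 0.045.

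The daily 16 h fast was compared with free feeding at 6 months. None of the machinery passed the test: edgeR's quasi-likelihood test with Benjamini-Hochberg adjustment over 16577 genes called 0 of 39 members, where 8 of all genes tested were called (0.0483%), and DESeq2 called 0 members too. Atg14 alone had an unadjusted p under 0.05 (1 member, 2.56%), against 9.92% of all genes. That count ran from 1 to 8 when 1 library was left out. The median difference was a log2 fold change of 0.04 over the members and -0.01 over all genes. The 95% interval of the fold change lay within 1.5-fold for 39 of 39 members and within 1.2-fold for 24. Over all genes tested these counts were 12553 and 4197 of 16577. The median SE was 0.077 over members and 0.12 over all genes, and a smaller SE gives a narrower interval. The groups did not overlap for 0 members, against 1.55% of all genes. By role, the median was 0.07 for initiation, 0.05 for nucleation and for membrane supply, 0.03 for conjugation, -0.04 for LC3 and GABARAP proteins, 0.09 for cargo receptors and -0.11 for the 2 transcription factors.

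Atg14 (chr14:47540894-47568434, minus strand, mm10) had the smallest p. Its levels in AL were 24.8, 26.3, 26.9, 25.9 and 24.3 CPM and in IF16 27.5, 26.6, 31.5, 29.9 and 29.4 CPM. IF16 lay mostly above AL, with 1 IF16 library below the highest AL library. The log2 fold change was 0.18 (SE 0.0583, 95% interval 0.05 to 0.30, adjusted p = 0.363 by edgeR), and it was 0.16 with the length gradient as a covariate and 0.18 without the 4 extreme libraries. In EOD Atg14 was tight, from 26.5 to 27.5 CPM.

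Tfeb (chr17:47737030-47792419, plus strand), a master regulator of lysosomal and autophagy genes, showed the most negative value. It measured 49.8, 65.5, 52.4, 72.5 and 73.1 CPM in AL and 59.6, 59.9, 41.4, 49.1 and 50.4 CPM in IF16. The groups overlapped widely, and the 2 highest AL libraries were replicates 4 and 5. The log2 fold change was -0.27 (SE 0.128, adjusted p = 0.511 by edgeR), and -0.15 without the 4 libraries of extreme length gradient.

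Atg2b (chr12:105613539-105685241, minus strand), which carries lipid into the growing membrane, showed the most positive value. It measured 77.4, 64.8, 69.1, 54.6 and 58.1 CPM in AL and 64.2, 65.4, 86.9, 80.8 and 77.6 CPM in IF16, overlapping groups with AL replicates 4 and 5 lowest. It had a log2 fold change of 0.21 (SE 0.105, adjusted p = 0.522 by edgeR), and 0.13 with the gradient as a covariate or 0.14 without the 4 libraries. Nbr1, a receptor for ubiquitinated cargo, measured 191, 191, 194, 170 and 172 CPM in AL and 187, 186, 211, 204 and 211 CPM in IF16. Here 3 IF16 libraries lay above every AL library and the other two below the AL maximum. Its log2 fold change was 0.12 (SE 0.0634, adjusted p = 0.533 by edgeR), and 0.08 both with the gradient and without the 4 libraries.

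Alternate-day fasting was set against the same AL libraries, so the comparisons of both regimens share their controls. Again edgeR called 0 of 39 members, where 11 of all genes were called (0.0664%), and DESeq2 called 0 members. Below an unadjusted p of 0.05 were 4 members (10.3%), all with higher means in EOD, against 14.4% of all genes and 7.02% in that direction; the count ran from 1 to 7 when 1 library was left out. The median log2 fold change was 0.04 over members and -0.02 over all genes. The 95% interval lay within 1.5-fold for 39 members and within 1.2-fold for 23. Over all 16577 genes the counts were 11930 and 3766. All 5 LC3 and GABARAP genes had lower means in EOD, from -0.18 (Gabarap) to -0.02 (Gabarapl2), and 5 of 5 genes of membrane supply had higher ones, from 0.05 (Atg2a) to 0.28 (Atg2b). These directions rested on the libraries that stood apart. Without the 4 of them the LC3 and GABARAP genes had higher means, 5 of 5 from 0.04 to 0.15, and membrane supply ran from -0.08 to 0.11. Adjusted for the length gradient instead, the ranges were 0.04 to 0.12 and -0.06 to 0.11. The mean length gradient, on the scale of all 30 libraries, was -0.075 in AL, -0.0389 in IF16 and 0.0019 in EOD.

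Ulk2, a kinase that starts the pathway, measured 74.1, 68.0, 71.0, 55.8 and 61.8 CPM in AL and 75.7, 79.5, 73.2, 83.4 and 70.7 CPM in EOD. EOD libraries were higher except where its lowest values met the highest of AL. The log2 fold change was 0.21 (SE 0.0769, adjusted p = 0.314 by edgeR). With the length gradient as a covariate it was 0.09, and without the 4 extreme libraries 0.08.

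Atg2b measured 80.3, 79.1, 72.7, 90.8 and 70.9 CPM in EOD. The highest of these came from EOD replicate 4, and the groups overlapped. Its log2 fold change was 0.28 (SE 0.105, adjusted p = 0.316 by edgeR), or 0.11 with the gradient and 0.11 without the 4 libraries.

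Atg9a, the vesicle scramblase that seeds the membrane, measured 69.3, 67.9, 63.0, 55.0 and 57.5 CPM in AL and 71.8, 70.2, 67.7, 76.7 and 65.2 CPM in EOD. Its log2 fold change of 0.17 (SE 0.0776, adjusted p = 0.341 by edgeR) was 0.05 with the gradient and 0.04 without the 4 libraries. Atg9a overlaps Ankzf1 on the other strand, and without stated strand handling their reads cannot be told apart. Tfe3, the relative of TFEB, measured 42.7, 47.6, 42.5, 39.5 and 42.8 CPM in AL and 46.8, 45.8, 46.5, 50.9 and 45.6 CPM in EOD. All but 1 AL library lay below EOD. This gave a log2 fold change of 0.13 (SE 0.0589, adjusted p = 0.337 by edgeR), and 0.09 with the gradient or 0.06 without the 4 libraries.

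The groups did not overlap for 1 member, the nucleation scaffold Becn1 (Beclin 1), against 2.9% of all genes. It measured 52.7, 52.8, 52.9, 47.3 and 52.7 CPM in AL and 55.1, 53.3, 56.3, 55.5 and 54.9 CPM in EOD, a log2 fold change of 0.09; it was named after its values were seen. Between the regimens, EOD against IF16, edgeR and DESeq2 called 0 of 39 members (0% of all genes by edgeR). An unadjusted p under 0.05 was reached by 0 members as well, against 3.62% of all genes. The interval lay within 1.5-fold for 39 members and for 13017 of 16577 genes. The log2 fold changes of the members ran from -0.15 (Atg10) to 0.14 (Ulk1).

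**Figure D2:**
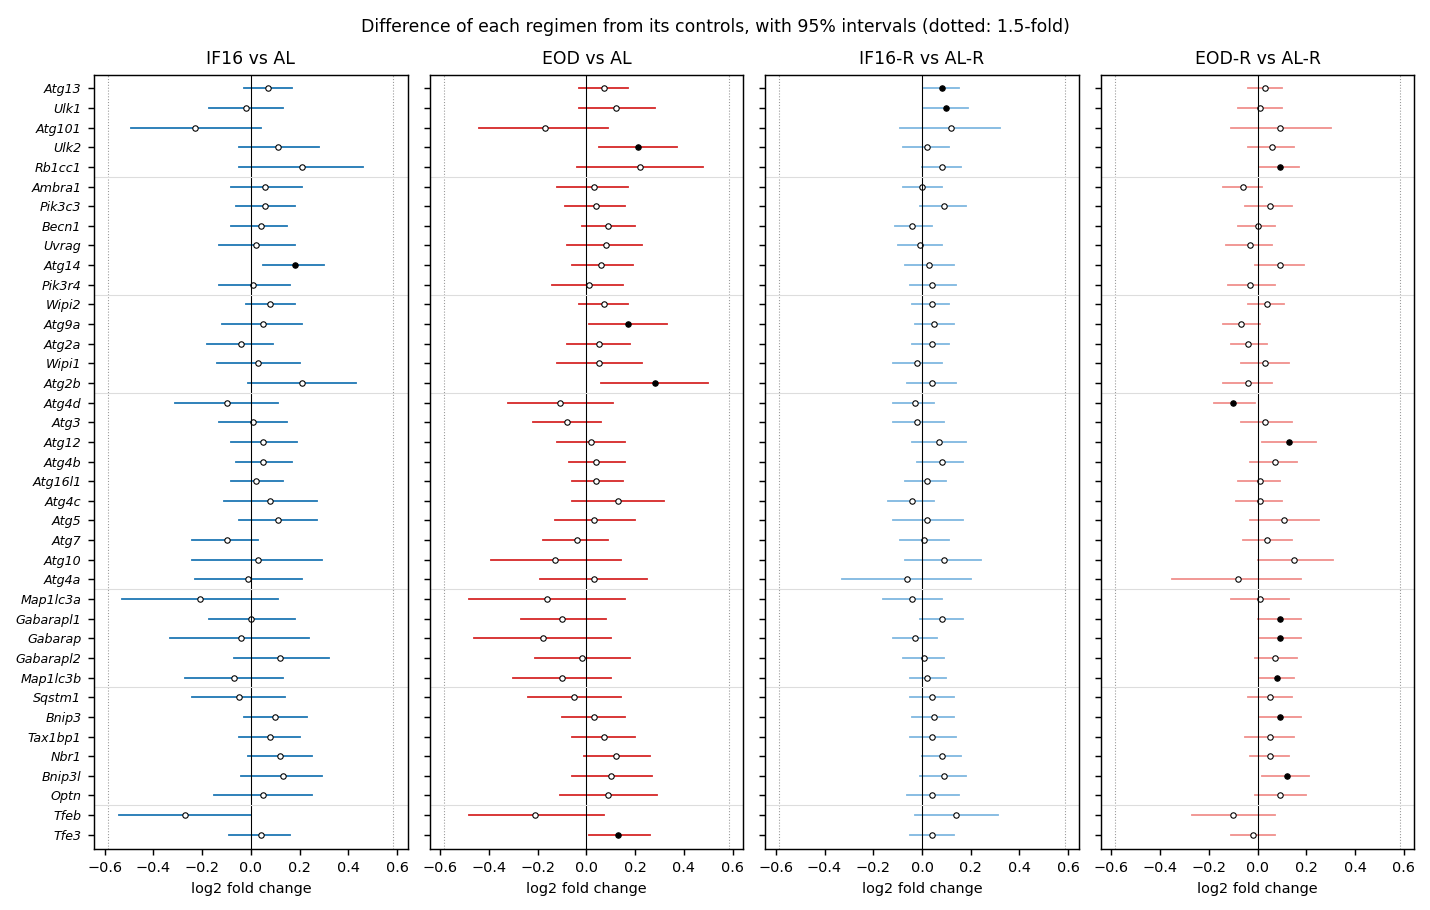
Log2 fold change (horizontal axis) of each member in the 4 comparisons of a regimen or refed group with its controls, with 95% intervals; filled points have an unadjusted p under 0.05 and dotted lines mark 1.5-fold. All 39 intervals lie inside the dotted lines in each panel, and those after refeeding are narrower.

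Refed mice were compared with their own controls at 8 months, after both had eaten freely for 2 months. For IF16-R against AL-R, edgeR called 0 of 39 members, where 28 of 16444 genes were called (0.17%), and DESeq2 called 0 members. An unadjusted p under 0.05 was found for 2 members (5.13%), both of the initiation complex and both higher, against 9.58% of all genes and 4.76% in that direction. The count ran from 0 to 8 when 1 library was left out, and it was 0 without AL-R replicate 1. The median log2 fold change was 0.04 over members and 0.00 over all genes, with a range from -0.06 (Atg4a) to 0.14 (Tfeb). The interval lay within 1.2-fold for 36 members and within 1.5-fold for 39. Over all 16444 genes the counts were 9568 and 13796.

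Atg13, the regulatory subunit that links Ulk1 to Rb1cc1, measured 118, 131, 126, 124 and 122 CPM in AL-R and 129, 133, 133, 134 and 128 CPM in IF16-R. A single AL-R library reached into the IF16-R range. Between the group means lay a log2 fold change of 0.08 (SE 0.0322, adjusted p = 0.454 by edgeR). Ulk1 measured 154, 167, 177, 161 and 151 CPM in AL-R and 174, 169, 181, 174 and 170 CPM in IF16-R. Its AL-R values spread more widely and met those of IF16-R only at the top. The log2 fold change was 0.10 (SE 0.0423, adjusted p = 0.467 by edgeR), and 0.04 with the gradient.

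Rb1cc1 was the 1 member whose groups did not overlap (2.18% of all genes). It measured 66.8, 67.4, 68.6, 66.5 and 65.5 CPM in AL-R and 69.4, 69.3, 72.6, 71.2 and 71.2 CPM in IF16-R. The difference was small, a log2 fold change of 0.08 (SE 0.0387, adjusted p = 0.542 by edgeR). Nbr1 measured 192, 196, 202, 209 and 203 CPM in AL-R and 207, 202, 217, 210 and 223 CPM in IF16-R, overlapping, with a log2 fold change of 0.08 (SE 0.0388, adjusted p = 0.536 by edgeR). With the gradient as a covariate the values of Rb1cc1 and Nbr1 came to -0.0031 and -0.00091. The gradient was higher in every IF16-R library (0.0437 to 0.0801 on the scale of all 30 libraries) than in AL-R (0.0131 to 0.0326). Gradient and regimen can therefore hardly be told apart in this comparison, with or without the covariate.

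After alternate-day fasting and refeeding, EOD-R against AL-R, edgeR called 0 of 39 members, where 7 of all genes were called (0.0426%), and DESeq2 called 0 members. At an unadjusted p under 0.05 there were 8 members (20.5%), 7 higher and 1 lower, against 8.5% of all genes (4.51% higher and 3.99% lower). The 7 were Bnip3l, Atg12, Map1lc3b, Rb1cc1, Bnip3, Gabarap and Gabarapl1, the other was Atg4d, and the groups did not overlap for 0 of 39 (1.87% of all genes). The count rests on AL-R replicate 1: without it the count was 1, and over all libraries left out in turn it ran from 1 to 11. IF16-R was set against the same AL-R libraries, so both refed comparisons share these controls. All 5 LC3 and GABARAP genes (0.01 to 0.09) and all 6 cargo receptors (0.05 to 0.12) had higher means in EOD-R, as did 8279 of 16444 genes. The directions of these 2 roles were not tested without AL-R replicate 1. The median log2 fold change was 0.04 over members and 0.00 over all genes. The interval lay within 1.2-fold for 35 members and within 1.5-fold for 39, against 9804 and 13912 of 16444 genes.

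Bnip3l (NIX), a receptor that marks mitochondria for removal, measured 101, 107, 109, 111 and 112 CPM in AL-R and 108, 115, 114, 124 and 122 CPM in EOD-R. Of the EOD-R libraries 4 lay above all AL-R libraries. Its log2 fold change was 0.12 (SE 0.0457, adjusted p = 0.484 by edgeR). Atg12, the ubiquitin-like protein joined to Atg5, measured 47.1, 54.4, 54.3, 53.9 and 54.3 CPM in AL-R and 52.1, 60.1, 61.0, 57.6 and 57.4 CPM in EOD-R. Replicate 1 was the lowest in both groups. The log2 fold change was 0.13 (SE 0.0535, adjusted p = 0.499 by edgeR).

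Atg4d, an LC3 protease, measured 67.6, 62.5, 66.7, 66.8 and 70.3 CPM in AL-R and 63.6, 60.1, 61.8, 61.2 and 64.5 CPM in EOD-R. It was the member with lower values, a log2 fold change of -0.10 (SE 0.0411, adjusted p = 0.521 by edgeR), and it overlaps Kri1 on the other strand. Map1lc3b measured 197, 199, 203, 208 and 196 CPM in AL-R and 204, 211, 213, 207 and 223 CPM in EOD-R. Its log2 fold change was 0.08 (SE 0.0342, adjusted p = 0.524 by edgeR), and it overlaps Zcchc14 on the other strand. For these 4 genes the values with the gradient as a covariate were 0.11, 0.13, -0.10 and 0.09.

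**Figure D3:**
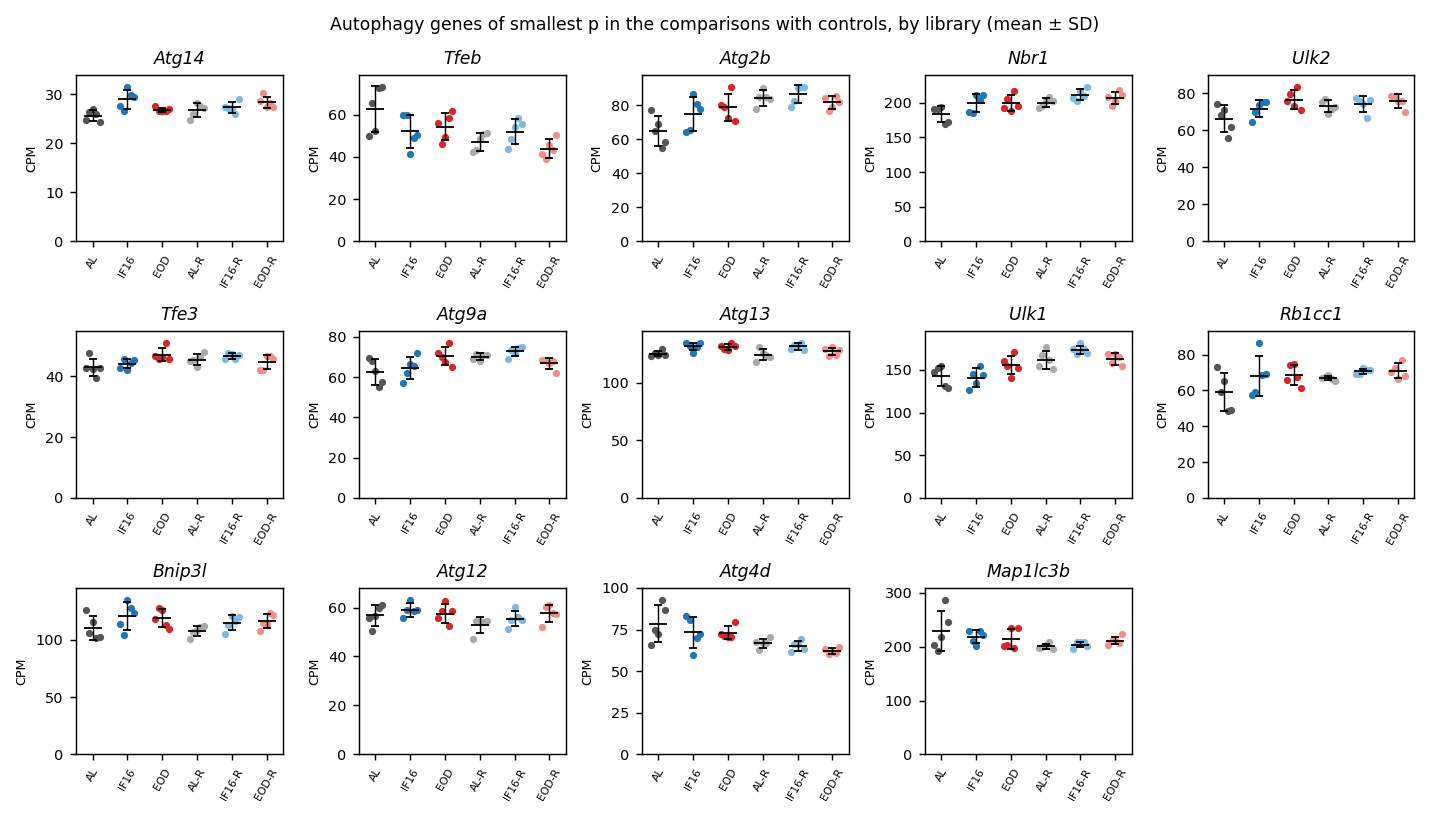
CPM (vertical axes, from 0) of the 14 members with the 4 smallest p-values in any of the 4 comparisons with controls, by group. Points are the 5 libraries of a group and bars are the mean ± SD; most neighbouring groups overlap, and Rb1cc1 in AL-R lies wholly below IF16-R.

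Between the refed groups, EOD-R against IF16-R, edgeR called 0 of 39 members, where 3 of all genes were called (0.0182%), and DESeq2 called 0 members. At an unadjusted p under 0.05 there were 3 members, against 9.75% of all genes; the count was 0 with the length gradient as a covariate and ran from 3 to 6 when 1 library was left out. Tfeb measured 43.5, 48.3, 54.0, 58.5 and 55.6 CPM in IF16-R and 41.1, 38.9, 45.7, 43.4 and 50.3 CPM in EOD-R, a log2 fold change of -0.24 (SE 0.0819, adjusted p = 0.333 by edgeR). Atg9a was lower in all 5 EOD-R libraries (62.1 to 68.6 CPM) than in IF16-R (69.1 to 74.7 CPM), with a log2 fold change of -0.12, and Gabarap had a log2 fold change of 0.13. The non-overlap of Atg9a compares with 1.26% of all genes.

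Whether the difference from controls changed between the end of a regimen and the end of refeeding was tested as an interaction in 1 fit of all 30 libraries. For IF16, edgeR called 0 of 39 members, where 8 of 16877 genes were called (0.0474%), and for EOD 0 of 39, where 2 were called (0.0119%). DESeq2 called 0 members in both. At an unadjusted p under 0.05 there were 3 members for each regimen (7.69%), against 7.21% of all genes for IF16 and 10.3% for EOD. The count for EOD ran from 2 to 10, and for IF16 from 1 to 3, when 1 library was left out.

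For IF16 the widest change was that of Tfeb, an interaction of 0.41 on the log2 scale (SE 0.157, adjusted p = 0.592 by edgeR): its difference from controls was -0.27 at the end of the regimen and 0.14 after refeeding. Atg101, a subunit that stabilizes Atg13, had an interaction of 0.35 (SE 0.165, adjusted p = 0.685). Without the 4 extreme libraries the values of Tfeb and Atg101 were 0.29 and 0.16. With the gradient as a covariate 4 members had an unadjusted p under 0.05 and 0 were called. The smallest adjusted p among members was then 0.163 by edgeR, against 0.592 without it. Over the alternatives other than leaving out 1 library, Tfeb ran from 0.29 to 0.41 and Atg101 from 0.16 to 0.35. Their lowest adjusted p-values there were 0.18 and 0.253 by edgeR. The values for Atg14 and Atg7, the E1-like enzyme of both conjugation systems, were -0.15 (SE 0.0712, adjusted p = 0.691) and 0.12 (SE 0.0759, adjusted p = 0.769). For EOD they were negative for Atg9a (-0.24, SE 0.0860, adjusted p = 0.449), Atg2b (-0.33, SE 0.120, adjusted p = 0.449) and Tfe3 (-0.16, SE 0.0689, adjusted p = 0.467) and positive for Gabarapl1 (0.18, SE 0.0904, adjusted p = 0.490). With the gradient as a covariate these 4 became -0.13, -0.15, -0.12 and 0.06, and without the 4 extreme libraries -0.11, -0.15, -0.08 and 0.05.

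The controls themselves differed between the 2 collections. In AL-R against AL, mice of 8 against 6 months, age, time on the study and table cannot be told apart. The joint fit called 14 of 39 members (35.9%), where 4030 of 16877 genes were called (23.9%, 11.5% higher and 12.4% lower). Higher in AL-R were 5 (Ulk1, Becn1, Atg2b, Atg9a and Atg4c), and lower were 9 (Map1lc3a, Map1lc3b, Gabarap, Gabarapl1, Atg101, Atg3, Atg4d, Bnip3 and Tfeb). By role, 4 of 5 LC3 and GABARAP genes were called lower and 0 higher, and 2 of 5 membrane supply genes were called higher. The median log2 fold change was -0.03 over members and -0.01 over all genes. Every one of these calls was lost with the length gradient as a covariate (smallest adjusted p among members = 0.071), when the 4 extreme libraries were left out (0.0627) or when only the AL and AL-R libraries were fitted (0.0581). Without AL replicate 4 the count was 1, without AL replicate 5 it was 3, and without AL-R replicate 1, 2 or 3 it was 9, 8 or 6. With the mean of the choroid plexus markers as a covariate it was 4 (Becn1, Atg2b, Gabarapl1 and Tfeb); the summed level of these markers averaged 2740 CPM in AL and 732 CPM in AL-R. The part of the Purkinje, granule cell and oligodendrocyte markers, which also separated these controls, was not tested.

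The highest and lowest values belonged to the lipid carrier and the coat proteins. Atg2b measured 77.8, 84.8, 90.4, 84.8 and 83.5 CPM in AL-R, all above AL, with a log2 fold change of 0.38 (SE 0.0846, adjusted p = 0.00603 by edgeR). Map1lc3a measured 199, 206, 220, 371 and 294 CPM in AL and 186, 178, 183, 194 and 198 CPM in AL-R. All AL-R libraries lay below AL, and AL replicates 4 and 5 stood far above the other three. This gene lies at chr2:155276297-155278073 on the plus strand. Its log2 fold change was -0.46 (SE 0.118, adjusted p = 0.0109). Gabarapl1 measured 369, 371, 381, 479 and 436 CPM in AL and 322, 338, 350, 358 and 361 CPM in AL-R, with a log2 fold change of -0.24 (SE 0.0640, adjusted p = 0.0134).

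Gabarap showed the same libraries at the top, with 112, 114, 129, 188 and 163 CPM in AL and 108, 111, 109, 120 and 119 CPM in AL-R, and a log2 fold change of -0.32 (SE 0.101, adjusted p = 0.0257 by edgeR). Map1lc3b measured 203, 193, 218, 287 and 246 CPM in AL, with a log2 fold change of -0.19 (SE 0.0719, adjusted p = 0.0492). With the gradient as a covariate the values were 0.15 for Atg2b, -0.13 for Map1lc3a, -0.08 for Gabarapl1, -0.02 for Gabarap and -0.01 for Map1lc3b. Without the 4 extreme libraries they were 0.26, -0.15, -0.11, -0.07 and -0.03.

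Of the initiation complex, Atg101 measured 19.9, 23.2, 24.5, 33.6 and 27.8 CPM in AL and 17.0, 22.0, 18.5, 18.5 and 20.3 CPM in AL-R, with a log2 fold change of -0.42 (SE 0.117, adjusted p = 0.0143 by edgeR). Ulk1 measured 148, 152, 154, 131 and 129 CPM in AL, lower in replicates 4 and 5, and its log2 fold change was 0.18 (SE 0.0602, adjusted p = 0.0315). Becn1 lay between 55.9 and 59.1 CPM in AL-R, above every AL library, with a log2 fold change of 0.15 (SE 0.0421, adjusted p = 0.0139). Of the 14, its value moved least with the gradient as a covariate, to 0.16 (adjusted p = 0.071), while Atg101 went to -0.18 and Ulk1 to 0.06. Without the 4 libraries the values were 0.12 for Becn1, -0.23 for Atg101 and 0.10 for Ulk1.

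Among the conjugation enzymes, the E2-like Atg3 measured 57.3, 58.5, 59.7, 62.6 and 62.4 CPM in AL and 51.6, 51.4, 52.2, 53.9 and 57.2 CPM in AL-R, without overlap, with a log2 fold change of -0.17 (SE 0.0563, adjusted p = 0.0286 by edgeR). Atg4d was between 65.9 and 92.8 CPM in AL, with a log2 fold change of -0.23 (SE 0.0768, adjusted p = 0.0311). Atg4c measured 32.2, 28.0, 28.4, 22.7 and 24.7 CPM in AL and 31.1, 30.3, 33.4, 32.0 and 30.5 CPM in AL-R, with a log2 fold change of 0.21 (SE 0.0716, adjusted p = 0.0352). With the gradient as a covariate the values were -0.12 for Atg3, -0.04 for Atg4d and 0.04 for Atg4c, and without the 4 libraries -0.13, -0.09 and 0.09.

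Atg9a lay between 67.8 and 71.6 CPM in AL-R, with a log2 fold change of 0.16 (SE 0.0608, adjusted p = 0.048 by edgeR). The mitophagy receptor Bnip3 measured 77.9, 73.7, 78.8, 81.6 and 80.8 CPM in AL and 67.4, 72.1, 68.1, 71.8 and 73.4 CPM in AL-R, without overlap, with a log2 fold change of -0.16 (SE 0.0492, adjusted p = 0.0264). Tfeb measured 42.3, 43.2, 48.3, 50.8 and 51.1 CPM in AL-R, against 49.8 to 73.1 CPM in AL, with a log2 fold change of -0.41 (SE 0.111, adjusted p = 0.0134). With the gradient as a covariate the values were 0.01 for Atg9a, -0.11 for Bnip3 and -0.22 for Tfeb, and without the 4 libraries 0.07, -0.12 and -0.24. Across the 39 members the groups did not overlap for 6, against 9.72% of all genes.

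The members called higher in AL-R were longer genes than those called lower. By the lengths in the deposited tables, the 5 higher had a median of 4365 bases (3178 to 10173) and the 9 lower a median of 1765 bases (1112 to 4138), beside 3338 bases over all 39. The mean length gradient was -0.075 in AL and 0.0242 in AL-R.

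**Figure D4:**
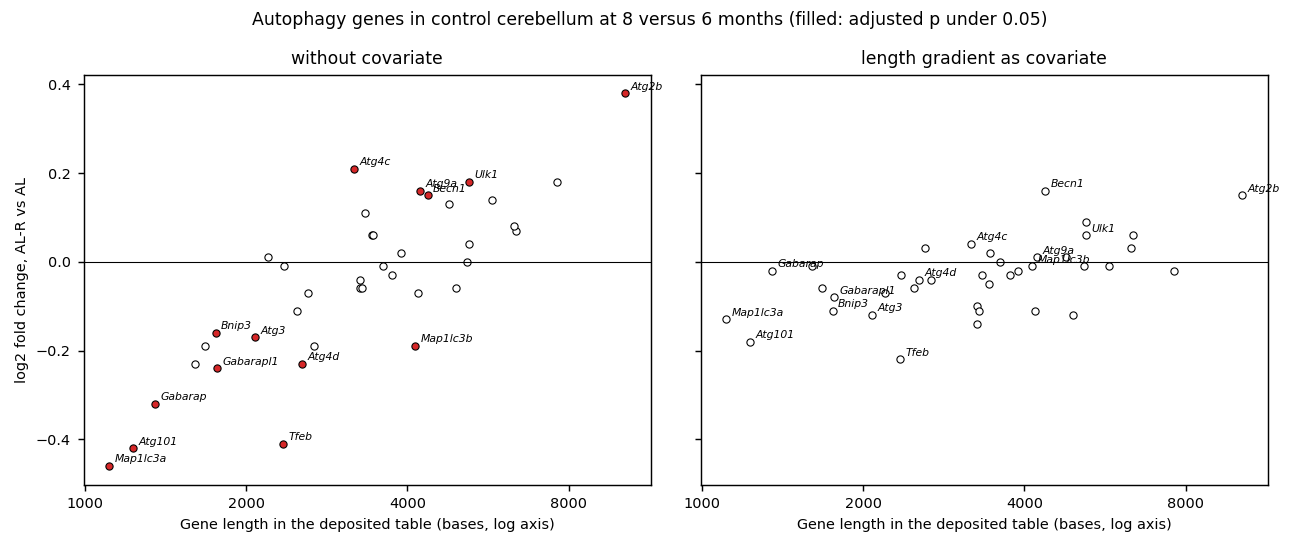
Log2 fold change of the 39 members in AL-R against AL (vertical axis) by gene length in bases (horizontal log axis), without a covariate (left) and with the length gradient as a covariate (right); filled points have an adjusted p under 0.05 and the 14 labelled genes are those called without the covariate. On the left short genes lie low and long genes high; on the right the values lie closer to 0 and no point is filled.

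Each member was also fitted against the length gradient at the end of the regimens, with the group in the model. This term passed the test for 19 of 39 members (48.7%), 9 higher and 10 lower, where 49% of all genes passed. The gradient is computed from the same libraries over all genes, the members included, so this describes how the members lie along it. All 5 LC3 and GABARAP genes were lower in libraries of high gradient, with a change per SD of the gradient of -0.23 on the log2 scale for Map1lc3a, -0.21 for Gabarap, -0.13 for Map1lc3b, -0.12 for Gabarapl1 and -0.09 for Gabarapl2. Atg2b (0.17), Rb1cc1 (0.16) and Atg4c (0.14) were the most positive. Length alone did not order them: Atg2a, the paralogue of Atg2b, is 6371 bases long and had a change of 0.00. Among refed libraries, whose gradients lay closer together, the term passed for 0 of 39 members by edgeR and for 0% of all genes.

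**Figure D5:**
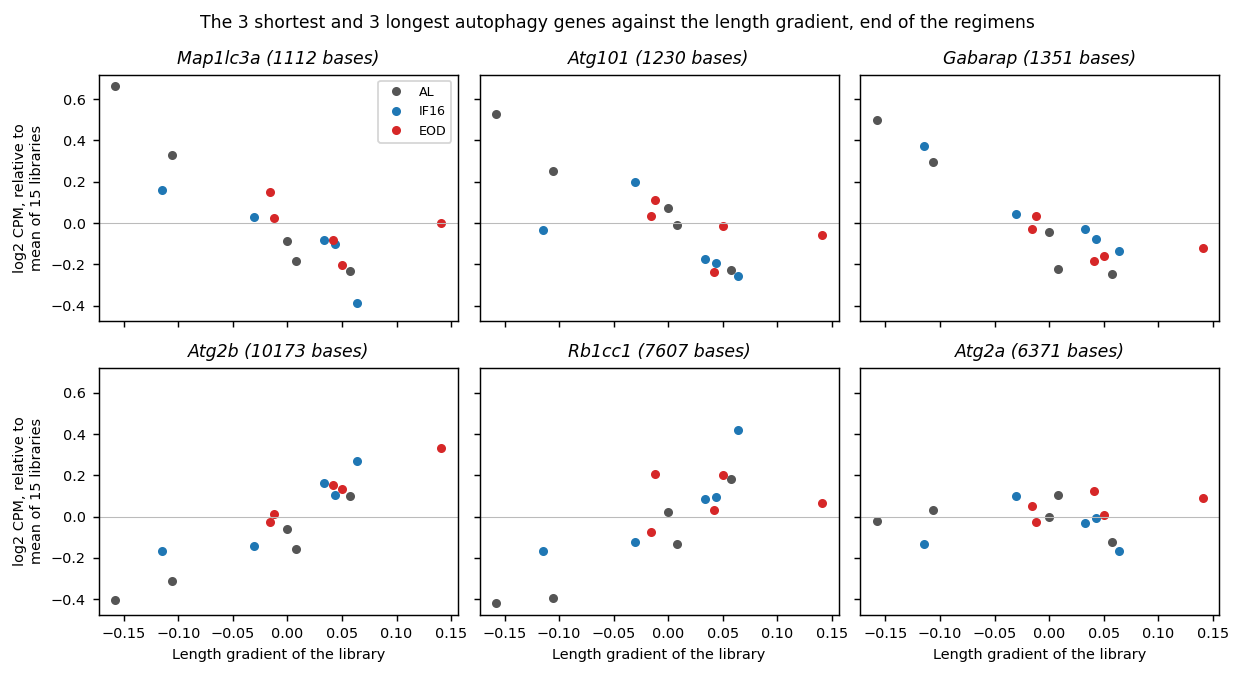
Log2 CPM relative to the mean of the 15 libraries at the end of the regimens (vertical axis) by the length gradient of the library (horizontal axis), for the 3 shortest members (top) and the 3 longest (bottom); points are libraries coloured by group. Map1lc3a and Atg101 are highest in AL replicates 4 and 5 at the left of the axis and Gabarap in these and IF16 replicate 1, Atg2b and Rb1cc1 are lowest in the same AL libraries, and Atg2a shows no slope.

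Other genes of the pathway were read from 3 lists of 30 genes each: further autophagy genes, nutrient signalling (mTORC1, AMPK, sestrins and FOXO factors) and lysosomal genes. In each of the 8 fasting and refeeding comparisons edgeR called 0 of the 90. At an unadjusted p under 0.05 in IF16 against AL there were 1 of 30, 7 of 30 and 0 of 30 in that order, beside 9.92% of all genes, and in EOD against AL 9 of 30, 10 of 30 and 3 of 30, beside 14.4%. After refeeding there were 7, 4 and 1 of 30 in IF16-R, beside 9.58% of all genes, and 5, 2 and 3 of 30 in EOD-R, beside 8.5%, all of them higher. The medians lay between -0.04 and 0.11 in these 4 comparisons. The companion genes were not refitted with the length gradient as a covariate or with libraries left out. How far their counts and values rest on the gradient or on single libraries was not tested. Both comparisons at each age share their controls. Smallest in p among nutrient genes was Sesn1, a stress-induced inhibitor of mTORC1, in IF16 (log2 fold change 0.16, adjusted p = 0.363 by edgeR) and in EOD-R (0.17, adjusted p = 0.300). Fnip2, a partner of folliculin, had the smallest p in EOD (0.35, adjusted p = 0.269), and Flcn, folliculin itself, in IF16-R (0.15, adjusted p = 0.293). Calcoco1, an ER-phagy receptor, came nearest to the threshold, in IF16-R (0.18, adjusted p = 0.0792).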

How the data were processed

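RNA-seq of mouse cerebellum was analysed from the whole-number read counts per gene that the authors deposited in 2 tables of 15 libraries. STAR 2.5, HTSeq 0.6.1 and the build mm10 are named in the submitters' processing notes; their settings, the annotation release and the handling of strand are not given in the sources used here. The members and lists were chosen with earlier results of these data known.

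Counts were tested with edgeR 4.0.16 (R 4.3.3): TMM, filterByExpr by group, quasi-likelihood test, two-sided, Benjamini-Hochberg over all genes tested (16577, 16444 and 16877 in the fits of the regimen table, the refeeding table and all 30 libraries), called at an adjusted p under 0.05. Standard errors came from the F statistic. Printed CPM and RPKM are TMM-scaled over all 30 libraries. Member counts were at least 161. Over all genes with a mean of 50 or more reads, chi-square per degree of freedom ran from 4.25 to 135. This covers 60 pairs of libraries of a group, and there spread between libraries exceeded counting error. It was not computed over the members alone, so it does not show this for each member. Full values are given for called members and for the 4 members of smallest p in each comparison with controls and each interaction; companion genes are named if called or smallest in p. Of 10 members that overlap an annotated gene, 5 overlap one with 50 or more reads. Alternatives included DESeq2 1.42.0, other filters and scaling, covariates, a replicate block and leaving out each library.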

Additional observations from a re-analysis of the deposited data

Results flagged for a closer look

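Within groups of 5 libraries, a library was singled out when its gap to the nearest of the others exceeded 0.71 of the range of the group. This was looked at in 138 groups (23 members with printed values in 6 groups), where chance gives about 1 in 20, and 9 were singled out. At the end of the regimens, Becn1 was lowest in AL replicate 4 at 47.3 CPM, with the other four between 52.7 and 52.9 CPM. Atg4d was highest in EOD replicate 5 at 79.8 CPM, with the next at 72.6 CPM. Tfe3 was highest in EOD replicate 4 at 50.9 CPM, with the next at 46.8 CPM. After refeeding, Atg12 was lowest in AL-R replicate 1 at 47.1 CPM, with the next at 53.9 CPM. In IF16-R, Gabarapl1 was lowest in replicate 1 at 336 CPM (next 369 CPM), Ulk2 lowest in replicate 4 at 66.5 CPM (next 74.3 CPM) and Atg7 highest in replicate 5 at 32.4 CPM (next 29.0 CPM). In EOD-R, Atg9a was lowest in replicate 5 at 62.1 CPM (next 66.8 CPM) and Bnip3 lowest in replicate 1 at 69.3 CPM (next 75.3 CPM).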

How the results depend on the processing

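In the 8 fasting and refeeding comparisons, 168 of 169 alternatives called 0 of 39 members. In the exception, EOD-R against IF16-R with the replicate number as a block, 1 member was called, Tfeb (log2 fold change -0.24, adjusted p = 0.0307 by edgeR, against 0.333 without the block). The numbers share too little to pair the libraries by rule: same-numbered deviations correlated from -0.52 to 0.419, 10 of 30 pairs were over 0.1, and 8 of 30 correlated best with their own number. Of these, 7 and 6 were among the 15 pairs after refeeding, where correlations ran from -0.0545 to 0.419. Whether the numbers pair the refed libraries was not tested, and the labels do not say so. In AL-R against AL the block gave 13 members.

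The 14 members called in AL-R against AL became 9 without a filter on counts, 0 when only the groups compared were fitted, 0 with the length gradient as a covariate, 4 with the choroid plexus mean as a covariate (Becn1, Atg2b, Gabarapl1 and Tfeb) and 0 with the 4 libraries of extreme gradient left out; DESeq2 gave 15. With 1 library left out they ran from 1 to 19. Over all genes the 4030 calls became 222 with the gradient, 28 with the groups compared alone, 405 without the 4 libraries and 1088 with the choroid plexus mean. The causes were not tested beyond these fits. Of 794 alternative values of the 38 fold changes given in full, 681 kept direction and side of the threshold. In 111 the value was no longer past it. A further 2 changed sign: Nbr1 (-0.00091) and Rb1cc1 (-0.0031) in IF16-R against AL-R with the gradient as a covariate. Only the 14 called in AL-R against AL could lose a call. The others counted as kept while their sign held and they stayed uncalled, whatever the change in size.

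DESeq2 called more genes overall than edgeR: 96 in IF16, 128 in EOD, 1 in EOD against IF16, 103 in IF16-R, 79 in EOD-R, 121 in EOD-R against IF16-R, and 27 and 14 in the interactions of IF16 and EOD. With the gradient as a covariate edgeR called 62 in IF16 and 37 in its interaction, and 0 in all 3 refeeding comparisons; with the block it called 95, 45 and 40 there. With 1 library left out, the calls over all genes ran from 3 to 10 in IF16, 2 to 6 in EOD, 0 to 65 in IF16-R, 0 to 16 in EOD-R and 0 to 71 in EOD-R against IF16-R. The smallest member count was 161 reads.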

Other observations

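Outside the 39 members, genes of the 3 companion lists were also called between the controls of 8 and 6 months. Age, time and table cannot be told apart there. Of the nutrient signalling genes 16 of 30 were called (53.3%, 11 higher and 5 lower in AL-R). Of the lysosomal genes 10 of 30 were called (33.3%, 1 higher and 9 lower). The further autophagy genes had 6 of 30 (20%, 2 higher and 4 lower). Beside the 23.9% of all genes, the share of the further autophagy genes was not raised. Among nutrient genes, Fnip2 had a log2 fold change of 0.47 (adjusted p = 0.00397 by edgeR), Foxo3 of 0.41 (adjusted p = 0.00994) and Rragd, a Rag GTPase, of 0.34 (adjusted p = 0.00761), while Prkag1, a regulatory subunit of AMPK, had one of -0.49 (adjusted p = 0.0135). The catalytic AMPK subunits Prkaa1 (0.28) and Prkaa2 (0.44) and Mtor (0.21) were higher too. Lysosomal enzymes were lower, with -0.39 for Ctsa, -0.33 for the protease cathepsin D (Ctsd), -0.34 for Hexa and -0.38 for the cholesterol carrier Npc2, while the membrane protein Scarb2 was at 0.40. Of the further autophagy genes, Wdfy3, a large aggregate adaptor, was at 0.58 and Epg5 at 0.39, and Atg9b was at -0.75, Vamp8 at -0.58, Tex264 at -0.35 and Wdr45 at -0.30. The length gradient differed between these controls, and its part in these values was not tested for the companion genes.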
